A study of Mus musculus with 8 samples.

Results

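The 34 genes described here encode the enzymes and transporters that carry glucose to pyruvate and lactate and that build and break down glycogen, of the 18193 genes read on these arrays. They were chosen by symbol, and each was read by the brightest probeset (a group of short probes that reads a transcript) annotated to that gene alone. Of the 34 genes, 30 had such a probeset. Gapdh had only control probesets of its own and is given apart, and Gpi1, Pfkfb1 and Eno1 were not listed in the annotation used and were not analysed here. RNA came from 4 SRC-2 KO and 4 WT samples of whole, unstressed hearts of male mice on a mixed C57B/6Jx129Sv background, fed ad lib and labelled as 10 to 12 weeks old, with 1 sample on each array. The KO is a germline disruption of Ncoa2, the gene that encodes the coactivator SRC-2, so every cell type of the heart lacks it, and the methods describe age-matched littermates.

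Glycolysis splits glucose into pyruvate in the cytosol, and the heart can send that pyruvate to the mitochondria or turn it into lactate. The adult heart draws most of its energy from fatty acids and holds glycolysis and glycogen as a supply that it can raise under load. Many of the enzymes exist in several forms made from separate genes, one typical of muscle or heart and others typical of brain, liver or most tissues, and the comparison of KO with WT hearts was made by step and by form.

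The labels were checked against the disrupted gene. Ncoa2 had signals of 237, 260, 267 and 235 in the KO hearts, against 1660, 2115, 1827 and 2134 in the WT hearts. That is a log2 fold change of −2.95 (standard error 0.12, limma adjusted p = 5.9e-04). Over all 18193 genes the common-variance fit in limma, which draws the variance of every gene toward 1 value, called 1 gene higher and 3 lower at an adjusted p under 0.05. A trended fit, in which the variance follows the signal, called 22 higher and 47 lower. The median signal was 75.6 to 83.2 in KO arrays and 77.0 to 87.3 in WT arrays. The difference between the 3′ and 5′ Gapdh control probesets was −0.17 to −0.06 (log2) in KO arrays and −0.12 to −7.3e-04 in WT arrays, so the genotypes overlapped. The same difference for actin was 1.49, 1.33, 1.47 and 1.41 in KO arrays and 1.30, 1.38, 1.35 and 1.34 in WT arrays, so 3 of the 4 KO arrays were above every WT array, and its part in the results was not tested. KO replicate 4 correlated as well with the WT hearts as with its own genotype (mean r of 0.974 and 0.971 across the genes with a mean signal of 1000 or more). Of 8 markers of heart muscle, 0 were under a signal of 50 in every heart. In whole hearts, fewer cells of a type and less RNA per cell cannot be told apart.

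Most of these genes had slightly higher signals in SRC-2 KO hearts, and none passed the test across all genes. The mean log2 signal was higher in KO hearts for 26 of the 30 genes and lower for 4. By the same measure 47% of all genes and 59.5% of genes with a mean signal of 1000 or more were higher. Counts of higher and lower means throughout are of mean log2 signals, which can differ in direction from linear means. The median log2 fold change of the 30 genes was 0.19, against −0.03 over all genes and 0.05 over the genes with a mean signal of 1000 or more. After quantile normalization, which gives every array the same distribution, it was 0.12 with 24 genes higher, and after centring on each array's median it was 0.25 with 27 higher. Log2 fold changes ranged from −0.75 to 0.78. In the common-variance fit 0 of the 30 genes were called, where 0.022% of all genes were (0.0055% higher and 0.0165% lower), and 7 were higher and 0 lower at an unadjusted p under 0.05. This count changed when single arrays were left out, which also leaves fewer arrays for the test. It was 3 higher without KO replicate 1 or WT replicate 4, and 4 without KO replicate 2 (and 1 lower) or KO replicate 3. It was 2 higher and 1 lower without WT replicate 2. The count was 5 higher without WT replicate 3, and stayed at 7 without KO replicate 4 or WT replicate 1. In the trended fit 0 were called, where 0.379% of all genes were, and 11 were higher and 1 lower at an unadjusted p under 0.05. With single arrays left out, from 6 (without KO replicate 3) to 12 (without KO replicate 4) were higher at that level. The random variance model test of the methods also called 0 and had 9 higher and 0 lower genes at an unadjusted p under 0.05. At that unadjusted level 3.95% of all genes were higher and 6.12% lower with a common variance, and 5.36% higher and 7.28% lower with a trend.

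**Figure D1:**
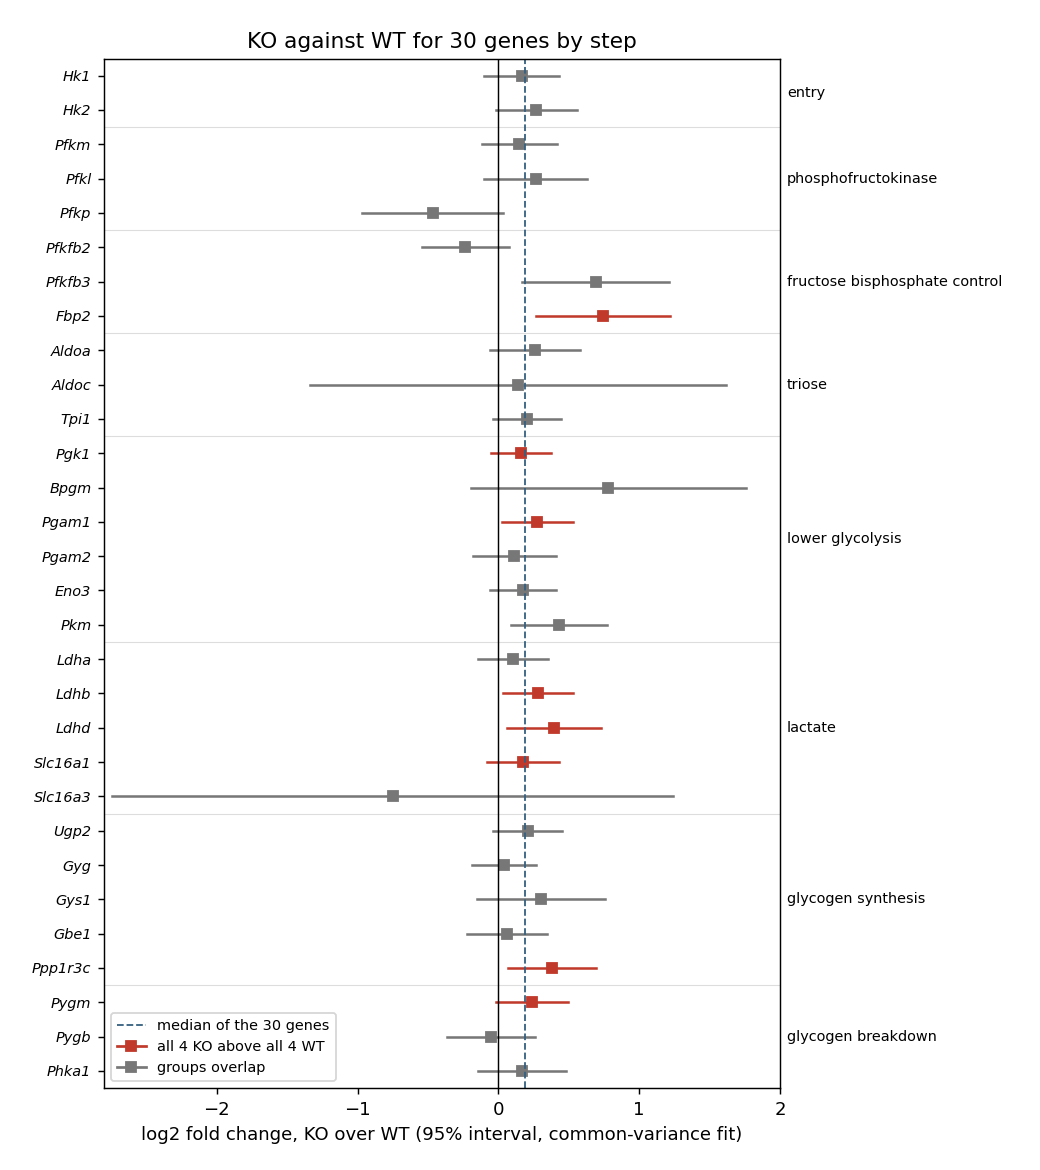
Log2 fold change, KO over WT, of the 30 measured genes by step (x axis), with 95% intervals of the common-variance fit (n = 4 hearts per genotype). Red squares are the 8 genes whose 4 KO hearts lay above the 4 WT hearts, grey squares are genes whose groups overlap, and the dashed line is the median of 0.19. The intervals of the dim genes Aldoc and Slc16a3 are the widest.

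For 8 genes, Fbp2, Ldhd, Ppp1r3c, Ldhb, Pgam1, Pygm, Pgk1 and Slc16a1, the signals of the 4 KO hearts all lay above those of the 4 WT hearts, and for 0 genes all lay below. Over all genes 3.1% lay above and 3.72% below, and among genes with a mean signal of 1000 or more 7.8% lay above and 3.75% below. The count was 3 after quantile normalization (Fbp2, Ldhd and Pgam1), where 3.29% of all genes lay above. It was 5 after centring on each array's median (Fbp2, Pgam1, Ppp1r3c, Pygm and Ugp2), where 3.52% of all genes did. Without KO replicate 4, which had the lowest KO signal for 15 of the 30 genes, it was 15. There the share of all genes rose as well, from 3.1% to 6.32%.

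As a median over the 30 genes, each gene taken relative to its own WT mean, the 4 KO hearts had log2 values of 0.22, 0.22, 0.24 and 0.11 and the 4 WT hearts 0.04, −0.05, 0.04 and 0.00. KO replicate 4 was the lowest of the KO hearts and the groups did not overlap. In each KO heart 25 or 26 of the 30 genes lay above their WT mean, against 9 to 21 in the WT hearts. Cardiomyocyte markers had higher means as well, 8 of the 8 listed, and their median log2 fold change was 0.19. Their summed signal was 521087 to 676013 in KO hearts and 430934 to 602414 in WT hearts. Under quantile normalization the medians of the 30 genes per heart were 0.09 to 0.18 in KO and −0.07 to 0.05 in WT hearts. The marker median was 0.00 in that setting. Most of these markers are among the brightest genes, with Myh6 at 97956 in KO hearts where the largest signal of any probeset was 124739. Quantile normalization gives the top ranks the same values on every array, so it limits the difference that these markers can show. The same limit holds for the brightest of the 30 genes. The log2 fold changes of Aldoa, Eno3 and Ldhb were 0.11, 0.018 and 0.13 in that setting, against 0.26, 0.17 and 0.28 before it. Atrial myocyte markers had lower means in KO hearts, 8 of 8, with a median log2 fold change of −1.64. For 4 of the 8 all KO hearts lay below all WT hearts, where 3.72% of all genes did. Their summed signals, set mostly by the brightest of them, were 17214 to 195910 in KO and 156106 to 259853 in WT hearts. None of the markers in either list was under 50 in every heart, and their part in the shift of the 30 genes was not tested.

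**Figure D2:**
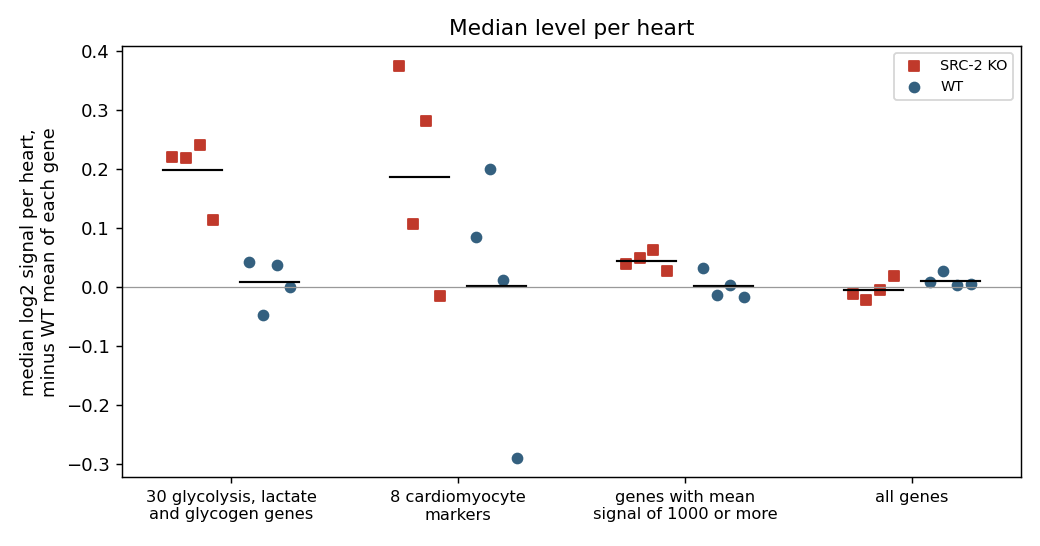
Median log2 signal per heart (y axis), after subtraction of the WT mean of each gene, for the 30 glycolysis, lactate and glycogen genes, 8 cardiomyocyte markers, genes with a mean signal of 1000 or more, and all 18193 genes. Squares are SRC-2 KO and circles WT hearts (n = 4 each), and bars are group means. The 30 genes reached 0.11 to 0.24 in KO hearts and −0.05 to 0.04 in WT hearts, and the cardiomyocyte markers overlapped between genotypes.

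The first enzyme, hexokinase, traps glucose in the cell as glucose 6-phosphate. Hk2, the insulin-responsive form of muscle, heart and fat, had signals of 9244, 9484, 9360 and 7613 in KO hearts and 6703, 7061, 8192 and 7614 in WT hearts. Of the KO hearts 3 were above every WT heart and KO replicate 4 was within the WT range. The log2 fold change was 0.27 (standard error 0.12, 95% interval −0.02 to 0.56, limma adjusted p = 0.517). Hk1, the form of most tissues, had a log2 fold change of 0.17 (standard error 0.11), or 0.10 without KO replicate 2, and its groups overlapped. The log2 ratio of Hk2 to Hk1 differed by 0.10 between KO and WT hearts (standard error 0.11, exact permutation test, two-sided, p = 0.4).

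Phosphofructokinase, the committing step of glycolysis, is built from muscle, liver and platelet subunits. Pfkm, the muscle subunit, had signals of 21832, 22572, 23055 and 18931 in KO hearts and 19998, 18759, 21154 and 17907 in WT hearts, and the groups overlapped. Its log2 fold change was 0.15 (95% interval −0.12 to 0.41). Pfkl, the liver subunit, had one of 0.27, with overlapping groups, and its other 2 probesets had 0.21 and, near background, −0.39. Without WT replicate 2 that of Pfkl was 0.14. Pfkp, the platelet subunit, went the other way, with 1759, 1977, 1115 and 1670 in KO hearts and 2220, 1770, 2246 and 2680 in WT hearts. The groups overlapped only through KO replicate 2 and WT replicate 2. Its log2 fold change was −0.47 (standard error 0.21, 95% interval −0.97 to 0.03, limma adjusted p = 0.52, or 0.26 with a trend), and without KO replicate 3 it was −0.29. Fibroblast, endothelial and macrophage markers had lower means too, 8 of 8 in each list, with median log2 fold changes of −0.72, −0.23 and −0.34. The fibroblast sums were 54870 to 85658 in KO and 82047 to 135347 in WT hearts. The endothelial sums were 11416 to 15360 in KO and 15007 to 17642 in WT hearts, and the macrophage sums 14928 to 18544 in KO and 19244 to 24801 in WT hearts. Of the smooth muscle and pericyte markers 7 of 8 had lower means, with a median of −0.13, while their sums were 59149 to 79947 in KO and 53703 to 59351 in WT hearts. None of these markers was under 50 in every heart, and their part in the Pfkp difference and in the shift of the 30 genes was not tested.

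Fructose 2,6-bisphosphate is the strongest activator of phosphofructokinase, and bifunctional enzymes of the Pfkfb genes make and remove it. Fbp2, the fructose 1,6-bisphosphatase of muscle, runs the step opposite to phosphofructokinase. It had the smallest p of the 30 genes, with signals of 1096, 1232, 1961 and 1182 in KO hearts and 851, 722, 728 and 887 in WT hearts. Every KO heart was above every WT heart, and KO replicate 3 stood far above the other KO hearts. The means were 1368 ± 399 in KO and 797 ± 84.4 in WT hearts (SD, n = 4 each). The difference of the mean log2 signals, given as the log2 fold change throughout, was 0.75, a fold of 1.68 (standard error 0.20, 95% interval 0.27 to 1.22, both on the log2 scale), with a limma adjusted p of 0.388, or 0.0864 with a trend. Without KO replicate 3 it was 0.56, and without KO replicate 4 Fbp2 was the only gene of the 30 that the trended fit called (adjusted p = 0.0468). The study names Fbp2 and Ldhd, and also Pfkfb1, as genes found on these same arrays. The direction of Fbp2 and Ldhd here is therefore not independent evidence. The study also measured these genes and Pkm2 by quantitative PCR, whose values are not part of the data used here.

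Pfkfb3, the inducible form that mainly makes fructose 2,6-bisphosphate, was dim, with 138, 159, 186 and 192 in KO hearts and 78.8, 87.6, 145 and 114 in WT hearts. WT replicate 3 was above KO replicate 1, and the other KO hearts were above every WT heart. Its log2 fold change was 0.69 (standard error 0.22, limma adjusted p = 0.411), and the mean of its 2 probesets, 1 of which lay near background, gave 0.14. Pfkfb2, the heart form, had 485, 600, 484 and 568 in KO hearts and 553, 602, 638 and 720 in WT hearts. Its groups overlapped, with a log2 fold change of −0.23 (95% interval −0.54 to 0.08).

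**Figure D3:**
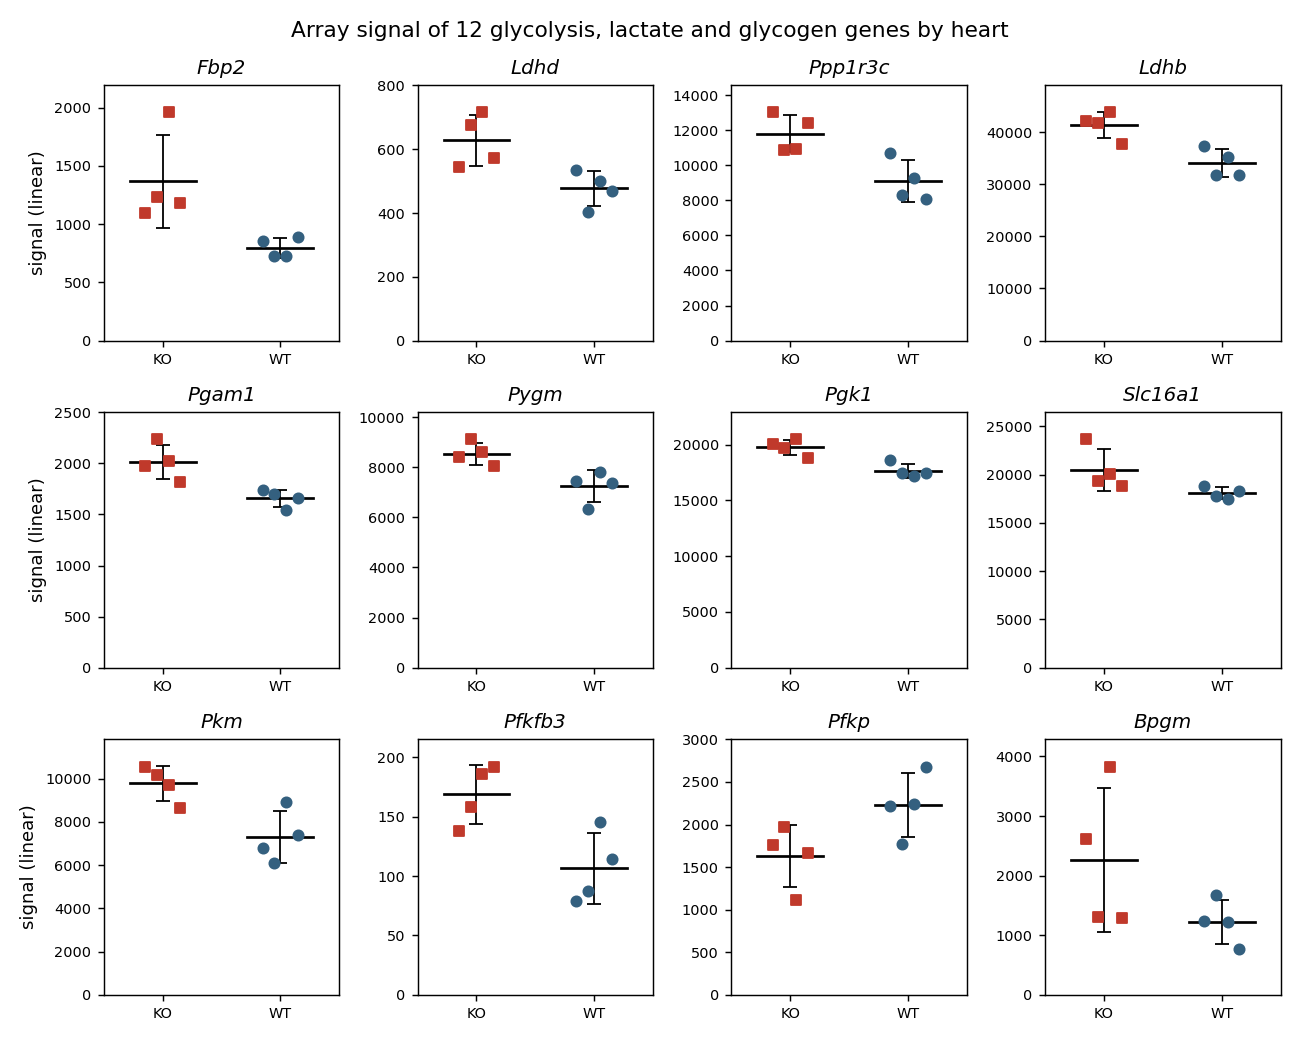
Array signal (linear y axes starting at 0) of 12 of the genes in each heart. Squares are SRC-2 KO and circles WT hearts, horizontal bars are means and error bars are SD (n = 4 each). For the first 8 panels every KO heart lies above every WT heart, Fbp2 with 1096 to 1961 in KO and 722 to 887 in WT hearts, and in the last 4 the groups overlap.

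Aldolase and triose phosphate isomerase split and even out the sugar phosphates. Aldoa, the aldolase of muscle, had a log2 fold change of 0.26 (standard error 0.14), or 0.17 without WT replicate 4, and overlapping groups at its brightest probeset. At each of its other 4 probesets, all marked for cross-hybridisation as is the brightest, no KO heart was below a WT heart, with log2 fold changes of 0.26 to 0.34. Tpi1 had signals of 25037, 27220, 26266 and 24560 in KO hearts and 24714, 21830, 22523 and 20538 in WT hearts. WT replicate 1 was above KO replicate 4, so the groups overlapped, while its other 2 probesets did not overlap (log2 fold changes 0.19 and 0.27). Aldoc, the aldolase of brain, was near background in both genotypes, at 50.5 ± 17.7 in KO and 58.8 ± 56.2 in WT hearts (SD, n = 4 each). Its log2 fold change was 0.14, opposite in direction to these linear means, and its sign changed with the setting.

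The second part of glycolysis returns ATP, and Bpgm, described below, was grouped with its genes. Each of the 6 genes measured in this group had a higher mean log2 signal in KO hearts. Of all genes with a mean signal of 1000 or more, 59.5% did. Pgk1, the kinase that makes ATP from 1,3-bisphosphoglycerate, had signals of 20020, 19677, 20458 and 18834 in KO hearts and 18575, 17441, 17169 and 17438 in WT hearts. The groups did not overlap, though the gap was small, with a log2 fold change of 0.16 (95% interval −0.05 to 0.37, limma adjusted p = 0.585). Its other probesets had log2 fold changes of 0.08 and −0.13. Pgam1, the phosphoglycerate mutase of most tissues, had 1977, 2234, 2026 and 1822 in KO hearts and 1740, 1697, 1541 and 1659 in WT hearts. The groups did not overlap, and the log2 fold change was 0.28 (standard error 0.11, limma adjusted p = 0.467). The muscle forms Pgam2 and Eno3, an enolase, had log2 fold changes of 0.11 and 0.17 with overlapping groups, and Pgam2 had one of 0.048 without KO replicate 1 and of −0.0098 under quantile normalization.

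Pkm, the pyruvate kinase of muscle and most tissues, had signals of 10550, 10171, 9713 and 8655 in KO hearts and 6774, 6100, 8935 and 7378 in WT hearts. Only WT replicate 3, above KO replicate 4, made the groups overlap. The means were 9772 ± 819 in KO and 7297 ± 1210 in WT hearts (SD, n = 4 each), with a log2 fold change of 0.43 (standard error 0.15, 95% interval 0.09 to 0.77, limma adjusted p = 0.429, or 0.139 with a trend). This probeset does not tell the splice forms of pyruvate kinase apart here. Gapdh, which oxidises glyceraldehyde 3-phosphate, was read by 3 control probesets. The brightest had 64247, 50751, 58658 and 48863 in KO hearts and 52511, 50639, 47716 and 43360 in WT hearts. The groups overlapped, with a log2 fold change of 0.19 (standard error 0.13, limma adjusted p = 0.645, with control probesets added to the fit), and the others had 0.22 and 0.17.

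Bpgm, which makes the 2,3-bisphosphoglycerate of red cells, had the highest log2 fold change of the 30 genes and also a wide spread. It is described here because its values stood out once seen. Its signals were 2607, 1309, 3829 and 1297 in KO hearts and 1247, 1669, 1224 and 767 in WT hearts. KO replicates 1 and 3 were high, and the other KO hearts were within the WT range. The log2 fold change was 0.78 (standard error 0.42, 95% interval −0.20 to 1.76, limma adjusted p = 0.571), and without KO replicate 3 it was 0.47. Alas2, the haem synthesis enzyme of red cell precursors, had 2428, 910, 3594 and 1014 in KO hearts and 860, 1317, 940 and 553 in WT hearts. KO replicates 1 and 3 were the high hearts there too, and WT replicate 2 was the highest and WT replicate 4 the lowest WT heart for both genes. Of 8 red cell markers listed 4 were measured, all 4 with higher mean log2 signals in KO hearts. Their summed signal was 1153 to 4691 in KO and 745 to 1590 in WT hearts. By linear means Hba-a1 was lower in KO hearts, at 9.90 against 13.4. The globin marker Hba-a1 was under 50 in every heart at the probeset used. The order of hearts was not the same in all of these markers. Slc4a1 had the high and low hearts of Alas2. Epb42, which was dim, had KO replicates 1 and 3 high as well, but WT replicate 3 as the highest WT heart. For Hba-a1 KO replicate 3 was the lowest KO heart and WT replicate 1 the highest WT heart. The part of red cells in the Bpgm values was not tested.

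Lactate dehydrogenase interconverts pyruvate and lactate, and its Ldhb subunit is that of heart while Ldha is that of fast muscle. Ldhb had signals of 42176, 41707, 43837 and 37824 in KO hearts and 37424, 31821, 35231 and 31848 in WT hearts. The groups did not overlap, but the lowest KO heart was close to the highest WT heart. The log2 fold change was 0.28 (standard error 0.11, 95% interval 0.03 to 0.53, limma adjusted p = 0.467), 0.13 under quantile normalization, and 0.18 to 0.35 at its other 3 probesets. Ldha had a log2 fold change of 0.11 (standard error 0.11), or 0.070 without WT replicate 4, with overlapping groups. Ldhd, the mitochondrial dehydrogenase of D-lactate, had 546, 675, 716 and 573 in KO hearts and 535, 404, 501 and 470 in WT hearts. All KO hearts were above all WT hearts, with KO replicate 1 just above WT replicate 1. Its log2 fold change was 0.39 (standard error 0.14, 95% interval 0.06 to 0.73, limma adjusted p = 0.453), and a second, overlapping probeset had one of 0.35.

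Lactate crosses the membrane through monocarboxylate transporters. Slc16a1, which encodes MCT1, had signals of 23652, 19384, 20063 and 18858 in KO hearts and 18837, 17750, 17438 and 18363 in WT hearts. KO replicate 1 stood above the rest, and KO replicate 4 was barely above WT replicate 1. The log2 fold change was 0.17 (95% interval −0.08 to 0.43, limma adjusted p = 0.618), and without KO replicate 1 it was 0.10. Slc16a3, which encodes MCT4, the transporter of strongly glycolytic cells, was near background in both genotypes, at 35.7 ± 31.1 in KO and 61.2 ± 47.1 in WT hearts (SD, n = 4 each), and its log2 fold change was −0.75, or −0.26 without KO replicate 3.

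Glycogen is built on glycogenin from UDP-glucose by glycogen synthase and the branching enzyme, and protein phosphatase 1, brought to the particle by Ppp1r3c, activates the synthase. Ppp1r3c had signals of 13033, 10905, 10920 and 12424 in KO hearts and 10692, 8310, 9295 and 8087 in WT hearts. The groups did not overlap, with WT replicate 1 just below the lowest KO heart. The means were 11820 ± 1077 in KO and 9096 ± 1187 in WT hearts (SD, n = 4 each), and the log2 fold change was 0.38 (standard error 0.13, 95% interval 0.07 to 0.69, limma adjusted p = 0.437, or 0.153 with a trend). Its dimmer probeset had one of 0.37. Ugp2, which makes UDP-glucose, had 18475, 16032, 16940 and 15231 in KO hearts and 14450, 13966, 15298 and 13924 in WT hearts. Only KO replicate 4 and WT replicate 3 overlapped, by a small margin, and the log2 fold change was 0.21 (standard error 0.10). Glycogen synthase Gys1, the branching enzyme Gbe1 and glycogenin Gyg had log2 fold changes of 0.31, 0.063 and 0.040 with overlapping groups. Without KO replicate 3 that of Gys1 was 0.16, and without single arrays that of Gbe1 was as low as 0.018 (without WT replicate 3) and that of Gyg 0.0089 (without WT replicate 4).

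Glycogen phosphorylase releases glucose 1-phosphate and has a muscle and a brain form. Pygm, the muscle form, had signals of 8416, 9105, 8596 and 8039 in KO hearts and 7445, 6330, 7826 and 7374 in WT hearts. The groups did not overlap, and the log2 fold change was 0.24 (standard error 0.11, 95% interval −0.01 to 0.50, limma adjusted p = 0.517). Pygb, the brain form, had one of −0.05 (95% interval −0.37 to 0.26), which was 0.0084 after centring on each array's median. Phka1, a subunit of the kinase that activates phosphorylase in muscle, had one of 0.17 (standard error 0.13), or 0.096 without WT replicate 2, with overlapping groups.

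The isoform comparison asked whether the balance between the muscle or heart form and the other form of an enzyme differed between KO and WT hearts. The log2 ratio of the 2 signals was taken within each heart, and 8 of 10 planned pairs could be read. In 2 pairs the genotypes did not overlap, and 0 of 8 passed after Benjamini-Hochberg adjustment over the pairs. The exact permutation test over 4 against 4 hearts has a smallest two-sided p of 0.0286. Adjusted over 8 pairs, that p falls under 0.05 only if most pairs are separated. With 2 separated pairs none could pass, so the adjusted test cannot decide for these 2. The ratio of Pfkfb2, the heart form, to Pfkfb3, relative to the WT mean, was −0.78, −0.67, −1.22 and −1.03 in KO hearts and 0.21, 0.19, −0.46 and 0.06 in WT hearts. It was lower in every KO heart, with a difference of −0.93 (standard error 0.20, exact permutation p = 0.0286, adjusted p = 0.114). The ratio of Pfkm to Pfkp was 0.50, 0.38, 1.23 and 0.36 in KO hearts and 0.03, 0.27, 0.10 and −0.40 in WT hearts. It was higher in every KO heart, with a difference of 0.62 (standard error 0.25, exact permutation p = 0.0286, adjusted p = 0.114), and KO replicate 3 was the highest. For Ldhb over Ldha the difference was 0.17 (standard error 0.08, exact permutation p = 0.0571, adjusted p = 0.152), and for Pygm over Pygb 0.29 (standard error 0.16, exact permutation p = 0.143). Pgam2 over Pgam1 differed by −0.16 (standard error 0.11) and Pfkm over Pfkl by −0.12 (standard error 0.17). For Aldoa over Aldoc, where Aldoc was near background, the difference was 0.12 (standard error 0.73). The differences thus ran in both directions.

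**Figure D4:**
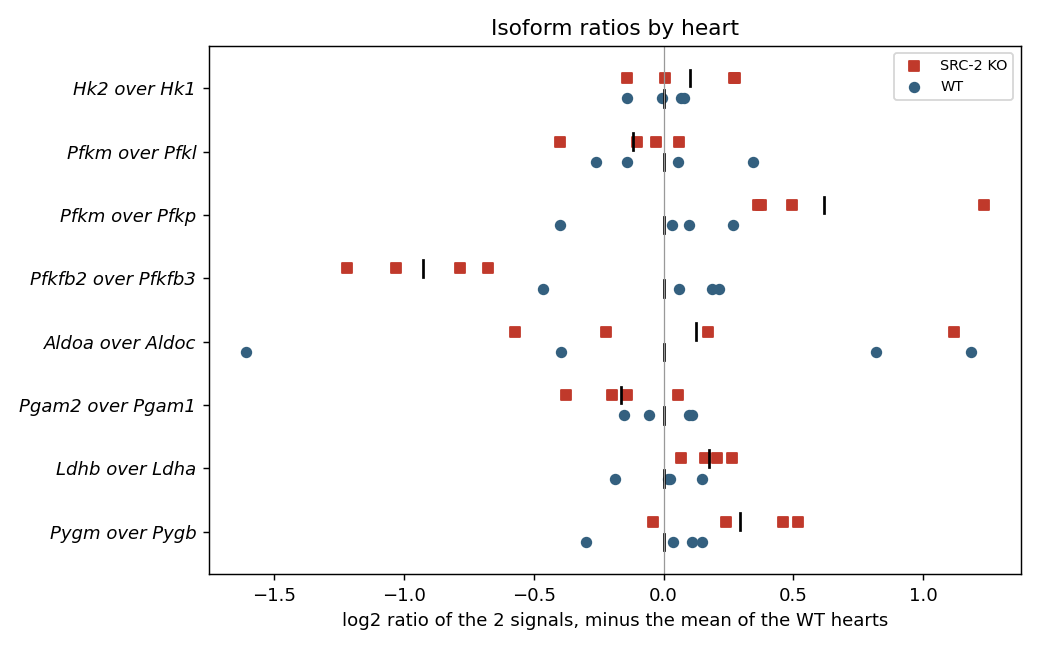
Log2 ratio of the signals of 2 forms of an enzyme in each heart (x axis), less its WT mean, for 8 pairs. Squares are SRC-2 KO and circles WT hearts (n = 4 each), and bars mark the means. All KO hearts lie to the right of the WT hearts for Pfkm over Pfkp (0.36 to 1.23 against −0.40 to 0.27) and to the left for Pfkfb2 over Pfkfb3 (−1.22 to −0.67 against −0.46 to 0.21), and the other pairs overlap.

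The promoters of the 34 genes were read for short motifs, and those of the 8 genes without overlap were then looked at apart. The sequences are RefSeq promoters of build GRCm38.p6, from 250 bases before to 50 bases after the start of transcription, and all 34 genes matched by symbol, with 52 promoters. The motifs were ACGTG, the core of the hypoxia response element, CACGTG, the E-box bound by clock and MYC family factors, which contains ACGTG, and AAGGTCA, a site of orphan nuclear receptors, each on both strands. ACGTG was in 25 of the 52 promoters (48.1%), against 19.6% of all 32851 promoters. CACGTG was in 9 of 52 (17.3%), against 7.15% of all, and AAGGTCA in 3 of 52 (5.77%), against 4.72%. The GC content, which differs between gene groups, had a median of 59.7% in the 52 promoters and 52.7% in all. Of the 8 genes without overlap, 7 held ACGTG and 4 held CACGTG, where 21 and 9 of the 34 genes did. Over all genes with a promoter, 21.8% held ACGTG and 8.09% held CACGTG. The other members with CACGTG were Ldha, Pfkm, Pfkfb2, Pfkfb3 and Gyg, whose groups overlapped. The 8 genes were picked by their own signals, so their counts are a description and were not tested. The 4 with CACGTG are shown because Fbp2 and Ldhd are among them, 5′ to 3′ along the gene, with each ACGTG on either strand in capitals (CACGTG where the 2 strands meet). The promoter of Fbp2 lies at chr13:62858351-62858650 on the minus strand, that of Ldhd at chr8:111630287-111630586 on the minus strand, that of Ppp1r3c at chr19:36736555-36736854 on the minus strand and that of Slc16a1 at chr3:104638414-104638713 on the plus strand.
Fbp2: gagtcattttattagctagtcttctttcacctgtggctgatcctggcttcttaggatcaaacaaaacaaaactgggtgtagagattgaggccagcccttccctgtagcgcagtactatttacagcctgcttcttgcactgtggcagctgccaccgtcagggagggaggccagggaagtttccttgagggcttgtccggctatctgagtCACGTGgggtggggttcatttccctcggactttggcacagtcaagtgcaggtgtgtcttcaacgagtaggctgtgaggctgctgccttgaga
Ldhd: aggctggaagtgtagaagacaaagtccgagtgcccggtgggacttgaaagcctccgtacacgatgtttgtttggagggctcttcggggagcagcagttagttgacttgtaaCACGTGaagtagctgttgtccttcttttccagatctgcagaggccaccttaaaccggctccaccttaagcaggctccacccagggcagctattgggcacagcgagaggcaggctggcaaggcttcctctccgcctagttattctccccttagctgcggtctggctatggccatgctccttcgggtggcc
Ppp1r3c: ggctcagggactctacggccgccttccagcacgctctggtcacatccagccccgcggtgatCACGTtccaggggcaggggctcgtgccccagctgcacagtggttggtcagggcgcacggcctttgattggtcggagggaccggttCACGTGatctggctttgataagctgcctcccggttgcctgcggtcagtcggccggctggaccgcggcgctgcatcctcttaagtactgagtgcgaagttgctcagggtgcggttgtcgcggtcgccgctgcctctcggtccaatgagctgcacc
Slc16a1: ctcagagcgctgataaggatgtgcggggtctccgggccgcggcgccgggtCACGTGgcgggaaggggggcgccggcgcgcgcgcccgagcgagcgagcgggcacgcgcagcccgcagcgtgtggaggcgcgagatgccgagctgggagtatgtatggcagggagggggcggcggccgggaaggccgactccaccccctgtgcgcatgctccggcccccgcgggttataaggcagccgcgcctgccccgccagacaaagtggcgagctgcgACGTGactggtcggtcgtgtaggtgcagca
The E-box begins 42 bases before the start in Fbp2, 139 in Ldhd, 104 in Ppp1r3c and 200 in Slc16a1. These are matches of letters, and no binding was measured.

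A wider list of 54 genes of the same pathways, of which 50 were measured, was split in direction. In KO hearts 27 had higher and 23 lower means, and the median of their log2 fold changes was 0.05. Of its genes with a mean signal of 1000 or more, Bsg, Mpc1, Pgm1, Phkb, Gsk3a, Gsk3b, Gpd1l, Gaa and Pgp had higher means. Their log2 fold changes were 0.04 to 0.26, and Pgm5, the remaining gene at that level, had one of −0.21. Over all genes at that level 59.5% were higher. The difference of the wider list from the 30 genes was not tested. In limma 0 of the 50 were called under either prior. At an unadjusted p under 0.05 the common-variance fit had 1 higher and 4 lower, and the trended one 3 higher and 4 lower. The 6 with the smallest p included Phka2, the liver alpha subunit of phosphorylase kinase, for which all KO hearts lay above all WT hearts (746 ± 33.4 in KO and 636 ± 25.8 in WT, SD, n = 4 each, log2 fold change 0.23, limma adjusted p = 0.479). Pfkfb4, the testis form of the bifunctional enzyme, had a log2 fold change of −0.48 (limma adjusted p = 0.474). The other 4, the enolases Eno2 and Eno4 and the lactate dehydrogenases Ldhc and Ldhal6b, had mean signals of 6.97 to 63.5 in both genotypes, near background, and log2 fold changes of −1.96 to −1.32. For Ldhal6b all KO hearts lay below all WT hearts.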

How the data were processed

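Total RNA of 8 heart samples was hybridised to mouse 3′ expression arrays, 1 sample to an array. The deposited values are signal intensities on a linear scale for 45101 probesets, from 0.219 to 124739, and after removing 2% at each end every array has the same mean, 500.0. The submitters' processing notes list Expression Console, Partek and RMA. RMA usually gives log2 values with the same distribution on every array. These are linear and the array medians differ, from 75.6 to 87.3, so they are not usual RMA output. Which method made them is not stated. Log2 was taken here with no floor. Of 35890 annotated probesets, 34958 have 1 symbol and 932 several. Each of 18193 genes was read by its brightest probeset outside the 64 controls, the methods' rule. The fit was limma 3.58.1 in R 4.3.3 (lmFit and eBayes, no trend), two-sided, with Benjamini-Hochberg adjustment over all genes and a threshold of 0.05. The random variance model test of the methods was rebuilt as an alternative, beside other scalings, filters, probeset choices, array weights, a trend and the removal of each array. The test of the isoform ratios permuted the 8 arrays exactly. Scripts were tested on simulated data. Values in each heart are given for genes without overlap, the 12 with the smallest p, both genes of a separated pair and genes the study names, and of the wider list the 6 with the smallest p are named. The members and lists were chosen with earlier results of these data known. Each array holds the RNA of a separate mouse, by the study's account. The number of arrays limits the precision.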

Additional observations from a re-analysis of the deposited data

Results flagged for a closer look

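Of 60 groups of 4 signals (30 genes in KO and in WT hearts), 2 had a heart far from the others, with a gap above the critical value of Dixon's test, and chance gives about 1 in 20. For Fbp2, KO replicate 3 had 1961 where the other KO hearts had 1096 to 1232, a gap of 0.843 of the range. For Hk2, KO replicate 4 had 7613 where the other KO hearts had 9244 to 9484, a gap of 0.872 of the range.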

How the results depend on the processing

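Of the 30 genes, 0 were called in any setting except the trended fit without KO replicate 4, which called 1 higher (Fbp2). Over all genes the main fit called 1 higher and 3 lower. The trended fit called 22 and 47, quantile normalization, a floor of 50 and leaving out dim genes 0 higher each, the mean of all probesets 0 and 1, and array weights 5 lower. Without single replicates the calls were 0 to 1 higher and 1 to 5 lower. In the trended fit they were 10 and 45 without KO replicate 1, 10 and 31 without KO replicate 2, 5 and 26 without KO replicate 3, 104 and 218 without KO replicate 4, 6 and 15 without WT replicate 1, 2 and 3 without WT replicate 2, 4 and 8 without WT replicate 3, and 4 and 17 without WT replicate 4. Hearts with the same number did not deviate together (r over all genes −0.02 to 0.04), and with the replicate block 0 genes were called higher and 0 lower, and 3 of the 30 genes were higher at an unadjusted p under 0.05.

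The median of the 30 genes was 0.25 after centring on each array's median and 0.12 after quantile normalization, where 5 and 3 genes lay above without overlap. Of all genes 3.52% and 3.29% lay above in these settings. Without single replicates the median of the 30 genes was 0.18 to 0.22, and 8 to 15 of them lay above and 0 to 1 below. Of all genes 4.12 to 6.32% lay above and 5.15 to 8.28% below without single replicates. Signs turned for Pygb (0.0084 after median centring, and −0.14 to 0.027 without single replicates, 0.027 in the trended fit without KO replicate 1), Pgam2 (−0.0098, quantile), Gyg (−0.027 by quantile, −0.0090 without cross-hybridising probesets) and Aldoc (−0.20 with a floor of 50 and with the mean of all probesets, −0.24 to 0.70 without single replicates, and in the trended fit −0.031 without KO replicate 4, −0.091 without WT replicate 1 and −0.24 without WT replicate 3). The ratio of Aldoa to Aldoc was −0.089 by quantile and −0.41 to 0.52 without single replicates, and that of Pfkm to Pfkl 0.12 with the mean of all probesets. The causes were not tested. The other settings of single genes kept their sign and side of the threshold (822 of them), apart from Fbp2 in the trended fit without KO replicate 4. Dim genes varied most: the median SD was 1.21 (log2) among the dimmest genes and 0.14 among the brightest.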
